A study of Mus musculus with 6 samples.

Results

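Integrins are adhesion receptors made of an alpha and a beta chain, and the 36 genes described here encode 23 of these chains and 13 proteins that tie their cytoplasmic tails to actin. The members were taken from a list by gene symbol, chosen with earlier results of these data known. Among the 19938 genes tested were 35 of the 36. The focal adhesion kinase gene Ptk2 was not analysed here. Expression was measured with Affymetrix Gene 1.0 ST arrays in F4/80+ cells, cells that carry a macrophage-associated surface marker, isolated from tumours. The tumours had been implanted in St2-/- mice (3 samples) or in wild type mice (3 samples), with 1 array per sample. ST2 receives the cytokine IL-33, and the deletion was in the host; the labels give no genotype of the tumour cells, tumour type, strain or age of the mice. The level of the targeted gene itself was not analysed here, which leaves the genotype labels without that check. The labels do not say whether samples of a group came from separate mice, and p-values therefore reflect sample-to-sample spread that may be technical.

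Leukocyte integrins, above all those of the beta2 family, bind immunoglobulin-like proteins on other cells and serve arrest, migration and cell contacts. Matrix integrins bind collagen, laminin, fibronectin or vitronectin, or release TGF-beta from its latent form. Talins and kindlins bind the beta tail and switch integrins to high affinity, vinculin and the parvins link them to actin, and kinases such as Pyk2 pass on the signal of a bound ligand. In macrophages these adhesions are mostly short-lived podosomes and point contacts, while spread fibroblasts form large focal adhesions.

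Values are RMA expression on the log2 scale, and differences are St2-/- minus wild type, so that a difference of 1 is a doubling. Genes with a limma adjusted p under 0.05, adjusted over all 19938 genes, are called higher or lower. Of the 35 members measured, 21 (60%) were called, 7 higher and 14 lower in St2-/-, against 20.8% of all genes (10.7% higher and 10.0% lower). Members were mostly bright on these arrays. The dimmest 40% of all genes held 4 members, Itgad, Itga2, Itga11 and Itgb6, none of them called, and among the brighter 60% of genes 21 of 31 members were called, against 30.3% of all genes there. St2-/- and wild type arrays did not overlap for 27 members, 9 with every St2-/- array above and 18 with every St2-/- array below, against 36.4% of all genes (18.1% above and 18.3% below). The median difference was -0.12 over the members and -0.023 over all genes. Over all genes, arrays of one group correlated at 0.996 to 0.998 (Pearson) and arrays of different groups at 0.986 to 0.988. The boundary of the dimmest 40% lay at a mean of 5.26, and the called Itga1 and Itgb3 were below it on every St2-/- array. Of all genes in the dim part, 5.25% were called lower and 1.13% higher. The table carries no detection call, so whether a dim gene was expressed at all was not tested.

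**Figure D1:**
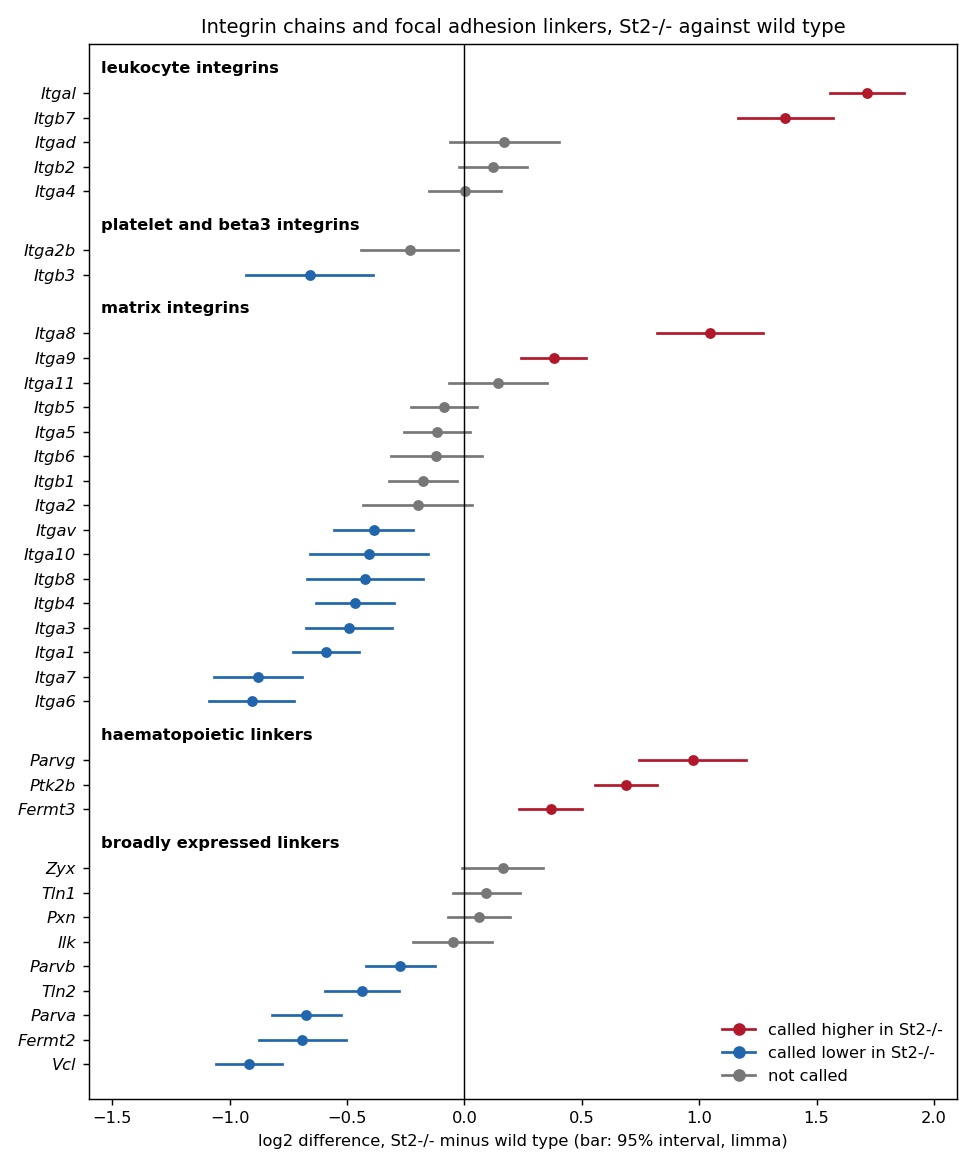
Log2 difference between 3 St2-/- and 3 wild type arrays for each of the 35 measured members, with 95% intervals from limma, grouped by role. Leukocyte chains and haematopoietic linkers lie at or above 0, and most matrix integrins and broadly expressed linkers lie below it, with Itga8 and Itga9 to the right.

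Among the 5 leukocyte integrin chains, Itgal and Itgb7 rose and the other 3 were not called. This makes 40% called, beside 20.8% of all genes and 30.3% of the brighter ones. Itgal encodes the alpha chain of LFA-1, the receptor for ICAM proteins that leukocytes use to stick to other cells. Itgal (probe set 10557591) had 9.60, 9.50 and 9.50 on St2-/- arrays, against 7.90, 7.73 and 7.83 on wild type arrays. All St2-/- arrays lay above all wild type arrays, and the level was 3.28-fold higher (log2 difference 1.71 ± 0.07, SE; limma adjusted p = 2.95e-07). Itgb7 encodes the beta chain that pairs with alpha4 in the gut-homing receptor of lymphocytes. Itgb7 (probe set 10432957) had 7.85, 7.72 and 7.55 on St2-/- arrays, against 6.46, 6.27 and 6.29 on wild type arrays. The groups again did not overlap, and the level was 2.58-fold higher (log2 difference 1.37 ± 0.09, SE; limma adjusted p = 6.2e-06). The next rise among the members was that of Itga8 (1.05). In bulk RNA such as this, fewer or more cells of a type and less or more RNA per cell cannot be told apart.

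Their partner chains were not called. Itgb2, the common beta chain of the leukocyte integrins, had 11.35, 11.22 and 11.26 on St2-/- arrays, against 11.16, 11.19 and 11.12 on wild type arrays. Its groups did not overlap, but the difference was 0.12 with a 95% interval of -0.03 to 0.27 (limma adjusted p = 0.234). Itgb2 was called higher with an intensity trend in the variance prior (adjusted p = 0.0464) and with arrays centred on their median (0.0493). Itga4, the alpha chain of the VCAM-1 receptor, had 9.07, 8.93 and 9.06 on St2-/- arrays, against 9.06, 9.03 and 8.96 on wild type arrays. These values were intermixed, and the 95% interval of the difference was -0.15 to 0.16. Itgad, an alpha chain of the beta2 family found on macrophages of some tissues, had a difference of 0.17 with an interval of -0.06 to 0.40 at a dim level. A second probe set of Itgad, the member with more than 1, differed by 0.03 and was not called either.

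Outside the member list, Itgax, the CD11c alpha chain that also pairs with Itgb2 and marks dendritic cells and some macrophages, had 11.09, 11 and 11.06 on St2-/- arrays, against 9.38, 9.26 and 9.12 on wild type arrays. Itgax lies next to Itgad on chromosome 7 with no protein-coding gene between them in the RefSeq gene order. Itgax rose by 1.80 ± 0.08 (SE), beside 0.17 for Itgad. Itgae, the CD103 alpha chain that pairs with Itgb7, differed by -0.03 (limma adjusted p = 0.794).

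Of the platelet and beta3 chains Itgb3 fell and Itga2b was not called. Itgb3, the beta chain of the platelet fibrinogen receptor and of the vitronectin receptor, had 5.09, 5.15 and 5.23 on St2-/- arrays, against 6.11, 5.57 and 5.77 on wild type arrays. The wild type arrays spread more (SD 0.27) than the St2-/- arrays (SD 0.07), with no overlap, and the level was 1.58-fold lower (limma adjusted p = 0.00388). Itga2b, the platelet-restricted alpha partner, had 5.42, 5.29 and 5.35 on St2-/- arrays, against 5.43, 5.55 and 5.78 on wild type arrays. Here the nearest arrays of the groups were almost equal, and the difference of -0.23 was not called (limma adjusted p = 0.108), but was without wild type replicate 1 (-0.31, 0.0493). Of 7 measured megakaryocyte and platelet markers, 5 were lower, among them Pf4 (-1.03), Ppbp (-1.44) and Gp9 (-0.57), and 2 were not called. This makes 71.4% called, beside 20.8% of all genes. The summed linear level of this marker list was 510 to 554 on St2-/- arrays, against 903 to 981 on wild type arrays (243 to 245 against 335 to 355 without Pf4), and its part in the difference of Itgb3 was not tested.

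Of the 16 matrix integrin chains, 8 were called lower and 2 higher, 6 missed the threshold, and the median difference was -0.29. This makes 62.5% called, beside 20.8% of all genes and 30.3% of the brighter ones. The lower group held the laminin receptor chains Itga3, Itga6, Itga7 and Itgb4, the collagen receptor chains Itga1 and Itga10, and Itgav with Itgb8. Itga6, a laminin receptor chain, had 8.76, 8.76 and 8.58 on St2-/- arrays, against 9.69, 9.64 and 9.49 on wild type arrays. No St2-/- array came near a wild type array, and the level was 1.87-fold lower (log2 difference -0.91 ± 0.08, SE; limma adjusted p = 4.04e-05). Itgb4, the beta chain that joins Itga6 in epithelial hemidesmosomes, had 6.61, 6.66 and 6.67 on St2-/- arrays, against 6.99, 7.13 and 7.22 on wild type arrays. It was 1.38-fold lower (limma adjusted p = 0.00163), again without overlap. Itga7, a laminin receptor chain best known from muscle, had 5.41, 5.18 and 5.42 on St2-/- arrays, against 6.15, 6.19 and 6.31 on wild type arrays. Its level was 1.84-fold lower (limma adjusted p = 6.31e-05), and its groups did not overlap. Itga3, a further laminin receptor chain, had 7.32, 7.28 and 7.06 on St2-/- arrays, against 7.78, 7.68 and 7.68 on wild type arrays. It was 1.41-fold lower (limma adjusted p = 0.0021), so that all 4 of these laminin receptor chains were lower.

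Collagen receptor chains were lower or not called. Itga1 had 4.98, 5.02 and 4.94 on St2-/- arrays, against 5.53, 5.63 and 5.55 on wild type arrays. The arrays of each group were close together, and the level was 1.51-fold lower (limma adjusted p = 0.000138). Itga2 lies next to Itga1 on chromosome 13 in the RefSeq order, and its difference of -0.20 was not called (95% interval -0.43 to 0.03). Itga10, a chain known from cartilage, had 5.74, 5.27 and 5.59 on St2-/- arrays, against 5.97, 6.0 and 5.85 on wild type arrays. It was called lower (-0.41, limma adjusted p = 0.0292), with St2-/- replicate 2 lowest. The call was lost without St2-/- replicate 2 or 3 or wild type replicate 1 or 2 and in 3 further alternatives (limma adjusted p = 0.0583 to 0.089). Itga11, a collagen receptor of fibroblasts, differed by 0.14 at a dim level and was not called.

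Itgav, the alpha chain shared by the vitronectin and latent TGF-beta receptors, had 10.18, 10.02 and 10.21 on St2-/- arrays, against 10.55, 10.44 and 10.58 on wild type arrays. It was 1.31-fold lower (limma adjusted p = 0.00535) with no overlap between groups. Its partner Itgb8, which serves to activate latent TGF-beta, had 5.43, 5.47 and 5.07 on St2-/- arrays, against 5.62, 5.80 and 5.82 on wild type arrays. It was called lower (-0.42, limma adjusted p = 0.0223), with St2-/- replicate 3 lowest. The call of Itgb8 was lost without that array or without wild type replicate 2 or 3, and in 2 further alternatives (limma adjusted p = 0.0547 to 0.0749). The partner Itgb5, a vitronectin receptor chain of macrophages among other cells, had 11.28, 11.23 and 11.28 on St2-/- arrays, against 11.29, 11.39 and 11.37 on wild type arrays. This difference of -0.09 (95% interval -0.23 to 0.05) was not called. Itgb6, known from epithelia, had 3.26, 3.39 and 3.26 on St2-/- arrays, against 3.50, 3.52 and 3.25 on wild type arrays. These dim values overlapped and were not called.

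Neither chain of the classical fibronectin receptor, Itga5 with Itgb1, was called. Itga5, the alpha chain of the classical fibronectin receptor, had 9.36, 9.35 and 9.40 on St2-/- arrays, against 9.46, 9.55 and 9.45 on wild type arrays. Itgb1, the beta chain it shares with most matrix integrins, had 10.73, 10.62 and 10.69 on St2-/- arrays, against 10.81, 10.87 and 10.89 on wild type arrays. In both genes every St2-/- array lay below every wild type array, by a small margin. The differences were -0.12 for Itga5 (limma adjusted p = 0.231, and 0.0341 after cyclic loess) and -0.18 for Itgb1 (limma adjusted p = 0.0824). Itgb1 was called with an intensity trend in the variance prior (adjusted p = 0.00558), after cyclic loess (0.0123) and without the dimmest genes (0.0381).

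Itga8 and Itga9 were the matrix integrin chains that rose. Itga8, which binds nephronectin and fibronectin and is known from kidney development and smooth muscle, had 6.22, 6.48 and 6.25 on St2-/- arrays, against 5.44, 5.26 and 5.11 on wild type arrays. The level was 2.07-fold higher with no overlap (log2 difference 1.05 ± 0.10, SE; limma adjusted p = 6.81e-05). Itga9, a receptor for tenascin-C and VCAM-1, had 8.99, 9.07 and 9.09 on St2-/- arrays, against 8.69, 8.68 and 8.64 on wild type arrays. It was 1.30-fold higher (limma adjusted p = 0.00203), a small step beside tight replicates.

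**Figure D2:**
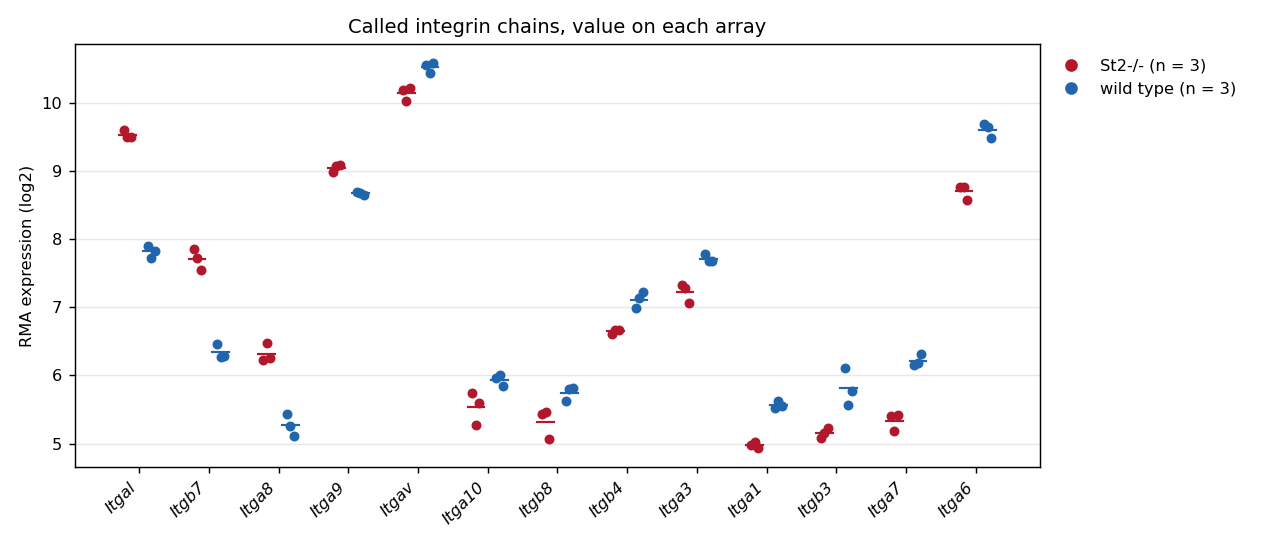
RMA expression (log2) on each array for the 13 called integrin chains, ordered by difference, with 3 St2-/- arrays left of 3 wild type arrays for each gene and a bar at each mean. Itgal, Itgb7, Itga8 and Itga9 are higher in St2-/-, the other 9 are lower, and in none do the groups overlap.

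Integrins reach the surface only as pairs, so the calls were read by known pair. Of 21 pairs formed by the listed chains, 3 had both chains called lower, Itga6 with Itgb4, Itgav with Itgb3 and Itgav with Itgb8. No pair had both chains called higher, and in 0 pairs were the chains called in opposite directions. In 3 pairs the alpha chain alone was called higher, in 8 the alpha chain alone was called lower, in 1 the beta chain alone was called higher, in 1 the beta chain alone was called lower, and in 5 neither was called. These pairs are not independent, since 12 contain Itgb1 and 5 contain Itgav. The counts are those of the main fit and change with uncertain calls. With an intensity trend or median centring, Itgb2 was called, and Itgal with Itgb2 had both chains higher. With an intensity trend, cyclic loess or the dimmest genes left out, Itgb1 was called lower. Itga8 and Itga9 were then opposite to Itgb1, and further Itgb1 pairs had both chains lower. Itgb8 lost its call in 5 of 15 alternatives. Of the 12 alpha chains that pair with Itgb1, 6 were lower, 2 higher and 4 not called, beside a difference of -0.18 for Itgb1 itself. This makes 66.7% of these alpha chains called, beside 20.8% of all genes.

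**Figure D3:**
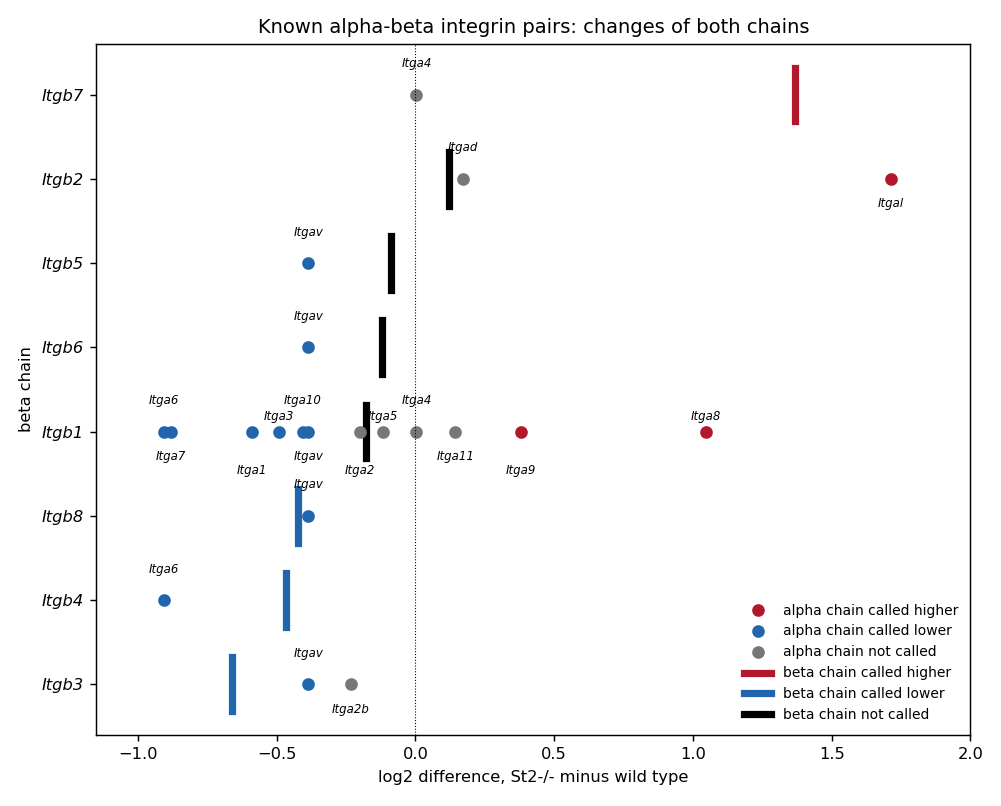
Log2 differences (St2-/- minus wild type) of the chains in 21 known integrin pairs, 1 row per beta chain, with the beta chain as a vertical bar and its alpha partners as points. Alpha partners of Itgb1 run from -0.91 (Itga6) to 1.05 (Itga8), while Itgb1 itself lies at -0.18.

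Of the 12 measured linkers, 3 were called higher, 5 lower and 4 not called. This makes 66.7% called, beside 20.8% of all genes and 30.3% of the brighter ones. The 3 linkers classed here as haematopoietic, Fermt3, Parvg and Ptk2b, all rose. The 5 lower ones, Vcl, Fermt2, Parva, Tln2 and Parvb, are known from adherent cells of many tissues. Both directions occurred within the kindlin and parvin families. The division of linkers into these types was set with earlier results of these data known.

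Fermt3 encodes kindlin-3, which blood cells need to activate beta2 and beta3 integrins. It had 10.42, 10.37 and 10.35 on St2-/- arrays, against 10.02, 10.03 and 9.99 on wild type arrays. Fermt2 encodes kindlin-2 of adherent cells and had 6.17, 5.99 and 6.23 on St2-/- arrays, against 6.92, 6.81 and 6.73 on wild type arrays. In neither did the groups overlap. Fermt3 was 1.29-fold higher (limma adjusted p = 0.00206), with a 95% interval of 0.23 to 0.50 on the log2 scale. Fermt2 was 1.61-fold lower (limma adjusted p = 0.000283), with an interval of -0.88 to -0.50.

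The parvins bind integrin-linked kinase and actin. Parvg, the parvin of blood cells, had 8.65, 8.43 and 8.57 on St2-/- arrays, against 7.55, 7.78 and 7.40 on wild type arrays. It was 1.96-fold higher (limma adjusted p = 0.000117) with wide separation of the groups. Parva, the widely expressed parvin, had 6.66, 6.69 and 6.71 on St2-/- arrays, against 7.28, 7.43 and 7.37 on wild type arrays. It was 1.59-fold lower (limma adjusted p = 7.31e-05). Parvb, known from heart and skeletal muscle, had 8.64, 8.65 and 8.72 on St2-/- arrays, against 9.01, 8.95 and 8.87 on wild type arrays. Its groups did not overlap, and its difference of -0.27 was called (limma adjusted p = 0.0161), but not without St2-/- replicate 1 or 2 or wild type replicate 1 (0.0555 to 0.0589), nor with arrays centred on their median (0.0872). Parvb and Parvg are direct neighbours on chromosome 15 in the RefSeq order, with no protein-coding gene between them, and moved in opposite directions. Ilk, the pseudokinase at the centre of the parvin complex, had 9.91, 9.94 and 9.82 on St2-/- arrays, against 9.84, 10.06 and 9.92 on wild type arrays. These values overlapped, and the 95% interval of the difference was -0.22 to 0.12.

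Talins connect beta tails to actin. Tln1, the main talin of leukocytes and platelets, had 10.49, 10.41 and 10.45 on St2-/- arrays, against 10.33, 10.32 and 10.42 on wild type arrays. It was not called (difference 0.09, 95% interval -0.05 to 0.24). Tln2, a talin of muscle and brain among other tissues, had 5.84, 5.75 and 5.87 on St2-/- arrays, against 6.29, 6.16 and 6.32 on wild type arrays. It was 1.35-fold lower without overlap (limma adjusted p = 0.00185).

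Vcl encodes vinculin, which is drawn to stretched talin and strengthens its hold on actin. Vcl had 8.0, 7.89 and 7.95 on St2-/- arrays, against 8.86, 8.89 and 8.84 on wild type arrays. All St2-/- arrays lay far below the wild type arrays, and the level was 1.89-fold lower (log2 difference -0.92 ± 0.06, SE; limma adjusted p = 7.68e-06), beside -0.91 for Itga6. Ptk2b encodes Pyk2, a focal adhesion kinase relative found in myeloid and lymphoid cells among others. Ptk2b had 10.66, 10.63 and 10.65 on St2-/- arrays, against 9.95, 9.98 and 9.95 on wild type arrays. Replicates were almost identical within each group, and the level was 1.61-fold higher (log2 difference 0.69 ± 0.06, SE; limma adjusted p = 3.32e-05). Pxn, the scaffold paxillin to which both kinases and vinculin bind, had 9.39, 9.37 and 9.38 on St2-/- arrays, against 9.29, 9.32 and 9.34 on wild type arrays. Its difference of 0.06 (95% interval -0.07 to 0.20) was not called. Zyx, the stress fibre protein zyxin, had a difference of 0.16 (95% interval -0.01 to 0.34) and was not called, but was without wild type replicate 3 (limma adjusted p = 0.0487) and with arrays centred on their median (0.0279).

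**Figure D4:**
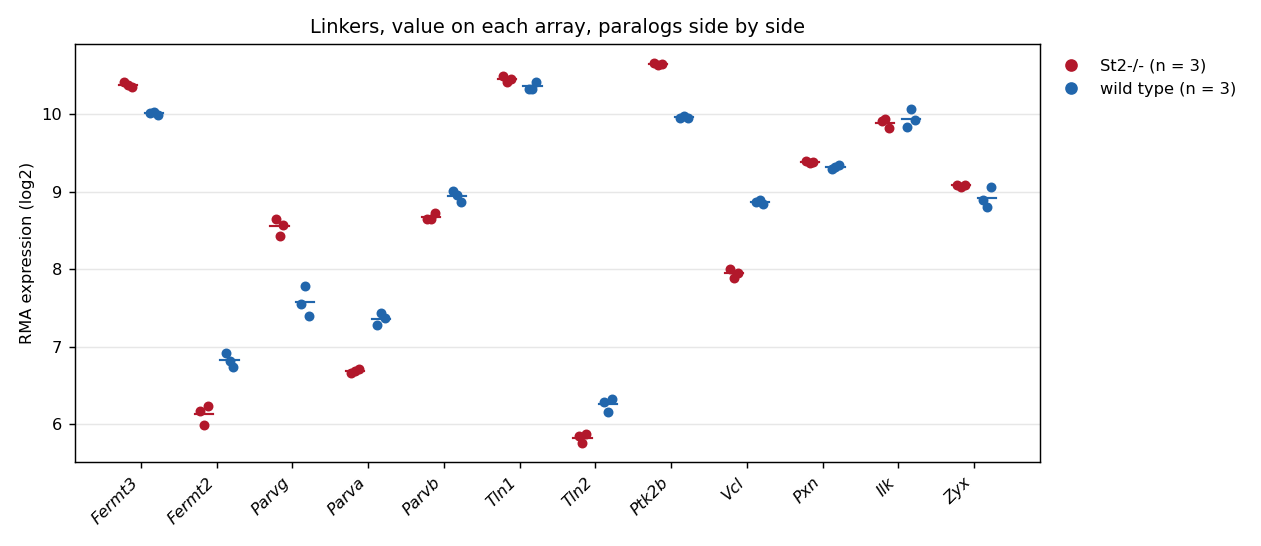
RMA expression (log2) on each array for the 12 measured linkers, with 3 St2-/- arrays left of 3 wild type arrays for each gene, a bar at each mean, and members of one family side by side. Fermt3, Parvg and Ptk2b are higher in St2-/-, and Fermt2, Parva, Parvb, Tln2 and Vcl are lower.

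Promoter sequence is shown for the linker with the greatest fall, for the kindlin that fell and for the neighbouring parvins that moved apart. Each is the 250 bases before the gene's start, from RefSeq (build GRCm38.p6), read 5′ to 3′ on the gene's own strand. Capitals mark CArG boxes, the motif of serum response factor, and the purine box GAGGAA, of the kind that the blood cell factor PU.1 binds. Both strands were searched. Parvg has a further start in the table, which is not printed and whose window held neither motif.
Vcl chr14:20929148-20929397 (plus strand): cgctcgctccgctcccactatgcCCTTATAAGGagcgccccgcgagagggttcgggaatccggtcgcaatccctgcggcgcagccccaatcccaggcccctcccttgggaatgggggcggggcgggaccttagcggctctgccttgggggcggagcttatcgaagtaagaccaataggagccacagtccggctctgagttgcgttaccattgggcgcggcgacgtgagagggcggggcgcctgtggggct
Fermt2 chr14:45530066-45530315 (minus strand): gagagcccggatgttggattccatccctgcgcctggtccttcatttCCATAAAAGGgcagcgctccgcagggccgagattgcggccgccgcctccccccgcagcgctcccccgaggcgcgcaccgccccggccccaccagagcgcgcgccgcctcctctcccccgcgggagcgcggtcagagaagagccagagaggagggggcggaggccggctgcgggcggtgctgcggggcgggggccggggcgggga
Parvg chr15:84324470-84324719 (plus strand): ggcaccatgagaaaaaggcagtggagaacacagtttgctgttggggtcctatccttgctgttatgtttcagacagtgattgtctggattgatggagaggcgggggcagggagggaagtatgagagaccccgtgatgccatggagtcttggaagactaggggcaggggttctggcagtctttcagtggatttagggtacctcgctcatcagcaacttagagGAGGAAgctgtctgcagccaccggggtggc
Parvb chr15:84231793-84232042 (plus strand): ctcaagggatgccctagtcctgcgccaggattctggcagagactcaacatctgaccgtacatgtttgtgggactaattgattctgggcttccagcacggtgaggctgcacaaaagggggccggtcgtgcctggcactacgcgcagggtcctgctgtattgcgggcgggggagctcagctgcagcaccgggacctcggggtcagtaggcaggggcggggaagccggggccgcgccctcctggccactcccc
Vcl held a CArG box that begins 227 bases before its start, and Fermt2 one that begins 204 bases before its start. Among all 32851 promoter windows of this length 1.47% held a CArG box. Of the members with a promoter in the table, 2 of 8 lower genes, 1 of 11 genes not called (Itgb6) and 0 of 5 higher genes held one. GAGGAA stood 30 bases before the printed start of Parvg, and 23.3% of all windows held it on either strand. It occurred in 1 of the 5 higher genes, 2 of the 8 lower genes and 6 of the 11 genes not called. Also searched but not marked was the GC box GGGCGG, in 1 higher, 4 lower and 6 uncalled genes (32.7% of all windows). GGAATG, a TEAD-type motif, was in 0 higher, 2 lower and 1 uncalled genes (12.6% of all windows). Genes were counted over all their starts (28 windows of 24 genes), so these counts and the shares per window are unlike measures. A match describes these letters and is no evidence of binding.

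Genes around the integrins were read from lists that exclude the members. Of 29 measured matrix ligands of integrins, 17 were lower and 1 higher, 11 missed the threshold, and the median difference was -0.34. That is 62.1% called, beside 20.8% of all genes. Fn1, the gene of fibronectin, had 11.52, 11.51 and 11.59 on St2-/- arrays, against 13.21, 13.25 and 13.31 on wild type arrays, a difference of -1.72. Tnc, the gene of tenascin-C, differed by -1.31, Vwf by -1.13 and Thbs1, the gene of thrombospondin-1, by -0.98. The higher ligand gene was Tgfbi (0.27), named after its value was seen. Of 12 counter-receptors of the immunoglobulin and junction families, 1 was higher (F11r, 0.47), 1 lower (Jam2, -0.34) and 10 not called, which is 16.7% called beside 20.8% of all genes. The ICAM and VCAM genes of this list were among those not called.

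Of 32 focal adhesion adaptors and actin linkers, 11 were lower and 5 higher, 16 missed the threshold, and the median difference was -0.185. That is 50% called, beside 20.8% of all genes and 30.3% of the brighter ones. Tns2, a tensin that binds integrin tails, differed by -1.18, and Actn1, the actin crosslinker alpha-actinin of non-muscle cells, by -0.77. Lpxn, the paxillin relative leupaxin of blood cells, rose by 0.59, and Evl, an actin polymerisation factor of the Ena/VASP family, rose by 0.63. In each of these genes the groups did not overlap.

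Of 30 genes of integrin activation, 9 were higher, 4 lower and 17 not called (median 0.075), which is 43.3% called, beside 20.8% of all genes and 30.3% of the brighter ones. Cytip, a cytohesin-binding protein of haematopoietic cells, rose by 1.13, the adaptor Dok1 by 0.75 and the Rap exchange factor gene Rapgef5 by 0.86. Dok2, a relative of Dok1 in blood cells, fell (-1.1). Of 18 tetraspanins and other lateral partners, 7 were lower and 4 higher (61.1% called, beside 20.8% of all genes), with Cd36 higher (1.57) and Cav1 (-0.90), the syndecan Sdc1 (-0.74) and the urokinase receptor gene Plaur (-0.57) lower.

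**Figure D5:**
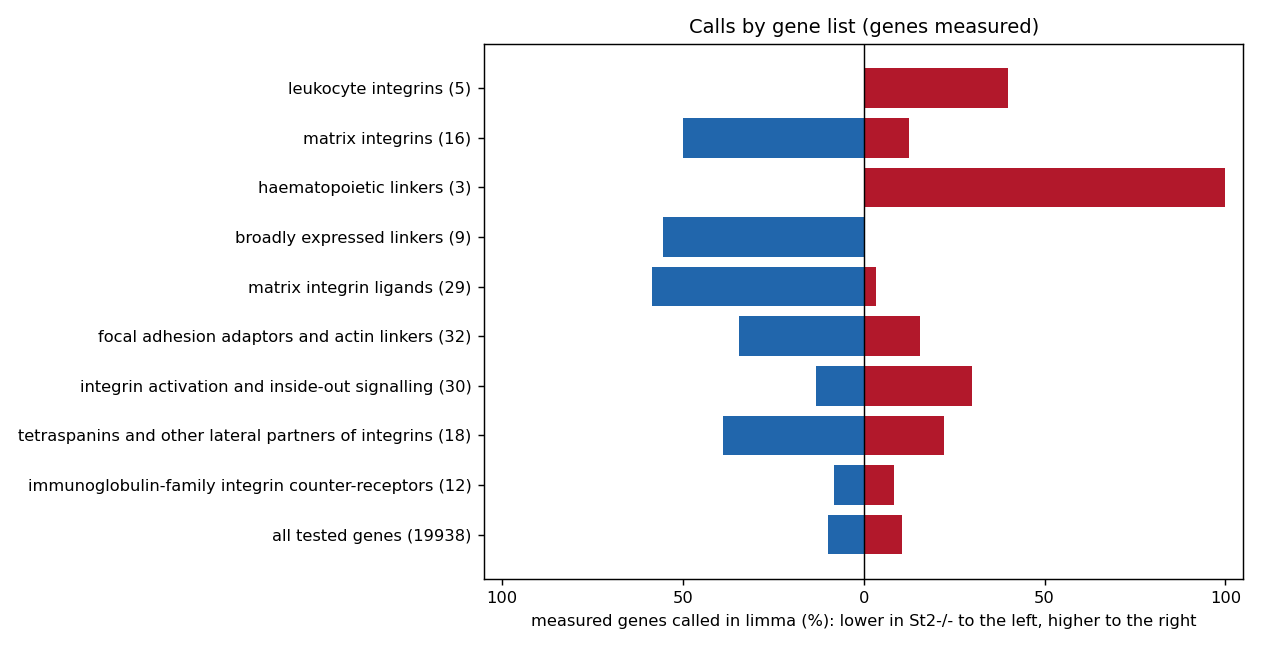
Share of measured genes (%) called higher (right) or lower (left) in St2-/- by limma for integrin and linker groups, 5 lists of related genes and all tested genes, with the number measured in brackets. Of the matrix integrin ligands 58.6% were lower and 3.45% higher, beside 10.0% and 10.7% of all genes.

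Markers of cells other than macrophages were read beside these members, by counts, medians and summed linear levels, against 20.8% of all genes called. Of 13 fibroblast and pericyte markers, 9 were lower and 1 was higher (median -0.61), while 3 missed the threshold. Their summed level was 1555 to 1680 on St2-/- arrays, against 4704 to 4848 on wild type arrays. Most of that gap was Dcn, the matrix gene decorin, and without it the sums were 1321 to 1400 on St2-/- arrays, against 2164 to 2189 on wild type arrays. Of 12 endothelial markers, 9 were lower, 2 higher and 1 not called (median -0.40), with sums of 863 to 896 on St2-/- arrays, against 909 to 1012 on wild type arrays. Kdr (1.52) and Pecam1 (0.89) were the higher ones, and the lower ones included Cdh5 (-1.46) and Plvap (-1.28). Without Kdr the sums were 593 to 610 on St2-/- arrays, against 825 to 919 on wild type arrays. Of the 16 matrix integrin chains, 8 were lower, 2 higher and 6 not called. Of the 9 measured linkers classed as broadly expressed, 5 were lower and 4 not called. Members picked for being lower share the direction of both lists by that choice, and a relation to these lists was not tested.

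Of 10 T cell markers, 5 were higher and 5 not called (median 0.22), with sums of 467 to 483 on St2-/- arrays, against 347 to 396 on wild type arrays. Of 8 NK cell markers, 2 were higher and 6 not called (25% called, median 0.09), a share near that of all genes. The sums of the NK cell markers were 165 to 169 on St2-/- arrays, against 144 to 159 on wild type arrays, and overlapped without Prf1. The dimmest 40% of genes, of which 6.38% were called, held 7 of the 8 NK cell markers. It also held 5 of the 10 T cell and 4 of the 5 B cell markers. Of 9 dendritic cell markers, 2 were higher, 2 lower and 5 not called, and the median was -0.013. Xcr1 (3.37) and Clec9a (1.88) were the higher ones, and Cd209a (-0.27) and Ccr7 (-0.26) the lower ones. Flt3, Zbtb46 and Batf3, named after their values were seen, were among those not called. The summed level of this list was 979 to 1045 on St2-/- arrays, against 336 to 376 on wild type arrays. Without Xcr1 it was 319 to 341 on St2-/- arrays, against 277 to 309 on wild type arrays. Of 5 B cell markers, 2 were higher and 3 not called (median 0.013), with sums of 297 to 320 on St2-/- arrays, against 204 to 226 on wild type arrays. Without Cd79b the sums overlapped, at 79.2 to 84.6 on St2-/- arrays, against 79.0 to 84.3 on wild type arrays. Lymphocytes and dendritic cells also express Itgal and Itgb7. Neutrophil markers had 4 of 8 lower, 1 higher (Csf3r, 0.50) and 3 not called, and the lower ones included S100a8 (-1.77) and S100a9 (-1.69). Their sums were 553 to 567 on St2-/- arrays, against 668 to 720 on wild type arrays. Without Csf3r they were 198 to 217 on St2-/- arrays, against 416 to 470 on wild type arrays. Epithelial and tumour cell markers had 1 of 14 lower and 13 not called. Of 9 macrophage markers, 2 were lower (Mertk, -0.72, and Lyz2, -0.71) and 5 were not called (median 0.047). The 2 higher ones were Fcgr1 (0.36) and Adgre1, the gene of F4/80 (0.31). No marker stood at 0, since RMA leaves a background level in every probe set, and the part of other cells in the integrin differences was not tested.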

How the data were processed

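Per the labels' protocols, RNA of each F4/80+ sample went onto 1 array. The authors deposited log2 expression values made with RMA (background correction, quantile normalization, median polish), per the submitters' processing notes. No version of RMA is named in these sources, and the log base was taken as 2 from the range of the values. Quantile normalization hides a shift shared by most genes. Of 35556 probe sets, 21789 had exactly 1 symbol in the platform annotation, and the brightest per gene over the 6 arrays left 19938 genes. All 35 measured members kept their symbol in the RefSeq table. Other columns of per-sample values numbered 0, and no arrays held identical values.

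The 3 St2-/- arrays were compared with the 3 wild type arrays by limma 3.58.1 in R 4.3.3 (lmFit, eBayes, two-sided, Benjamini-Hochberg over all genes, threshold 0.05, no filter). Intervals are 95% intervals from the moderated fit. Precision is limited by the number of arrays. The fit was tested on simulated data. Members, lists and tests were chosen with earlier results of these data known. Every array's value is given for called members, their known pair partners and the paralogs of called linkers. Up to 4 called genes with the smallest p are named per further list and per marker list. One further list of related genes is not reported here.

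Alternatives were centring arrays on their median, cyclic loess, an intensity trend, a robust prior, array weights, all rows, the mean of a gene's probe sets, a filter on the dimmest 40% of genes, a block for the replicate number, and leaving out each array.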

Additional observations from a re-analysis of the deposited data

How the results depend on the processing

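Of the 21 member calls, 18 held in each of the 15 alternatives run, and between 19 and 21 held in any one. The exceptions were Itga10 (lost in 7), Itgb8 (lost in 5) and Parvb (lost in 4). With arrays centred on their median, Itga10 (adjusted p = 0.0646) and Parvb (0.0872) were no longer called, while Itgb2 (0.21, adjusted p = 0.0493) and Zyx (0.25, 0.0279) were. Under cyclic loess Itga10 and Itgb8 were no longer called, and Itga5 and Itgb1 were. All-gene calls moved under median centring to 3686 higher and 1294 lower, which is 74.0% higher, against 51.7% (2142 higher and 1998 lower) as reported. This follows from the lower array medians of St2-/- (5.81 to 5.82) than of wild type (5.88 to 5.93).

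The sign turned in uncalled members with differences near 0. Itgb5 became 0.00 (0.00333) and Ilk 0.04 under median centring, and Itga4 became -0.089, Tln1 0.00 (-0.00269) and Pxn -0.031 under cyclic loess. Leaving out 1 array gave Itga4 differences of -0.025 to 0.048 and Ilk differences of -0.10 to 0.01. With 1 array left out, 19 to 21 members and 2887 to 3852 genes were called. The replicate number as a block called the same 21 members and 3571 genes, against 4140 without it, and the deviations of same-numbered arrays correlated at -0.05 to 0.01, so the numbers were not taken as pairs.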
